A study of Mus musculus with 24 samples.

Results

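Gene expression in quadriceps muscle of mdx mice was compared between 2 and 3 weeks of age, the interval in which muscle injury begins in this strain. The comparison was defined by title: it took the 3 arrays titled mdx at 2 weeks and the 3 arrays titled mdx at 3 weeks, 6 of the 24 arrays of the series. mdx mice carry a germline nonsense mutation in Dmd, the gene for dystrophin, so every cell type of the sampled muscle carries it. BL10 is the matching control strain without the mutation, and its 3 arrays at 2 weeks and 3 arrays at 3 weeks are given beside the mdx values. The other 12 arrays hold both strains at 5 days and 6 weeks. They contributed to the estimate of the spread, the quantile normalization, the choice of each gene's probe set and the filter on dim genes. No treatment is named for any group, and the sources used here give neither the sex of the mice nor whether an array holds RNA of 1 mouse or of a pool. The titles call the arrays of a group biological replicates, and p-values measure the spread between these samples. For 1 of the 6 arrays the labels contradict each other: mdx 2 weeks replicate 3 is placed at 2 weeks by its title and its age, whereas its description names 3 weeks.

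Dystrophin links the actin cytoskeleton of the muscle fibre through a complex of membrane proteins to the extracellular matrix. Without it, fibre membranes tear during contraction, calcium enters and fibres die in patches. Dead fibres draw in monocytes and macrophages, which clear debris and release chemokines and other signals. Satellite cells then divide and fuse into new fibres, which pass again through embryonic forms of myosin and troponin. In mdx limb muscle this cycle is known to start abruptly around weaning.

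Levels are given as log2(intensity + 16) after quantile normalization of the deposited intensities. The lowest possible level is therefore 4, and a difference of 1 is 2-fold. Differences are 3 weeks minus 2 weeks ± the standard error from limma, and genes with an adjusted p under 0.05 were called. Levels of different genes come from different probe sets, so their order within a list served only to choose which genes are named and says nothing of their abundance. In whole muscle, a larger number of cells of a type cannot be told apart from more RNA per cell.

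Dmd was examined first in every array, as a check of the titles. With the brightest probe set its level was 7.73, 8.33 and 10.31 for those titled mdx at 2 weeks and 7.94, 7.64 and 8.25 in those titled mdx at 3 weeks. The BL10 arrays read 9.18, 10.03 and 10.08 at 2 weeks and 8.88, 8.02 and 10.13 at 3 weeks. The array titled mdx 2 weeks replicate 3 thus lay above every BL10 array of both ages, and BL10 3 weeks replicate 2 lay among the mdx arrays. A second Dmd probe set placed the same mdx array apart, with 7.05, 7.70 and 9.80 at 2 weeks and 7.43, 7.37 and 7.10 at 3 weeks. In BL10 it read 7.70, 9.08 and 9.49 and then 8.03, 7.59 and 9.66. BL10 2 weeks replicate 1 thus equalled mdx 2 weeks replicate 2 with this probe set. Arrays said below to go against their titles are those of the brightest probe set, mdx 2 weeks replicate 3 and BL10 3 weeks replicate 2. With that probe set the mdx difference in Dmd was -0.84 ± 0.47 (limma adjusted p 0.705), and -0.08 without mdx 2 weeks replicate 3. The 3 arrays titled mdx at 6 weeks read 9.84, 9.99 and 10.04, at the level of BL10. They enter here only through the spread and the processing shared by all arrays. Dmd goes against the title of mdx 2 weeks replicate 3. Each list median printed here that changes sign, or moves by over 1.5 times, without this array is therefore given both ways. Utrn, which encodes the dystrophin-related protein utrophin, read 9.71, 9.66 and 9.21 at 2 weeks and 9.90, 9.48 and 9.98 at 3 weeks, a difference of 0.26 ± 0.22 (adjusted p 0.877).

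The 2 arrays numbered 1 also stood apart. Over the 15000 genes tested, mdx 2 weeks replicate 1 and mdx 3 weeks replicate 1 correlated with each other at r = 0.988, the second highest of all 276 pairs in the series, although they carry different ages. Only 118 genes differed at least 2-fold between them. In the other 14 pairs of the 6 arrays, r ran from 0.929 to 0.968 and between 511 and 1532 genes differed at least 2-fold. Both also shared high levels of Mmp9, a secreted protease of neutrophils and osteoclasts, at 10.83 and 10.92 against 5.82 to 6.77 in the other 4 arrays, and of Ctsk, the collagen-degrading cathepsin K, at 11.15 and 10.99 against 7.65 to 7.97. These 2 arrays barely differ from each other, so leaving both out enlarges the difference between the ages for every gene in which they are alike. It need not do so elsewhere: Cenpb read 8.59 and 5.93 in these 2 arrays, and its difference went from -1.99 to -1.65 without them. Results without both arrays are a description.

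**Figure D1:**
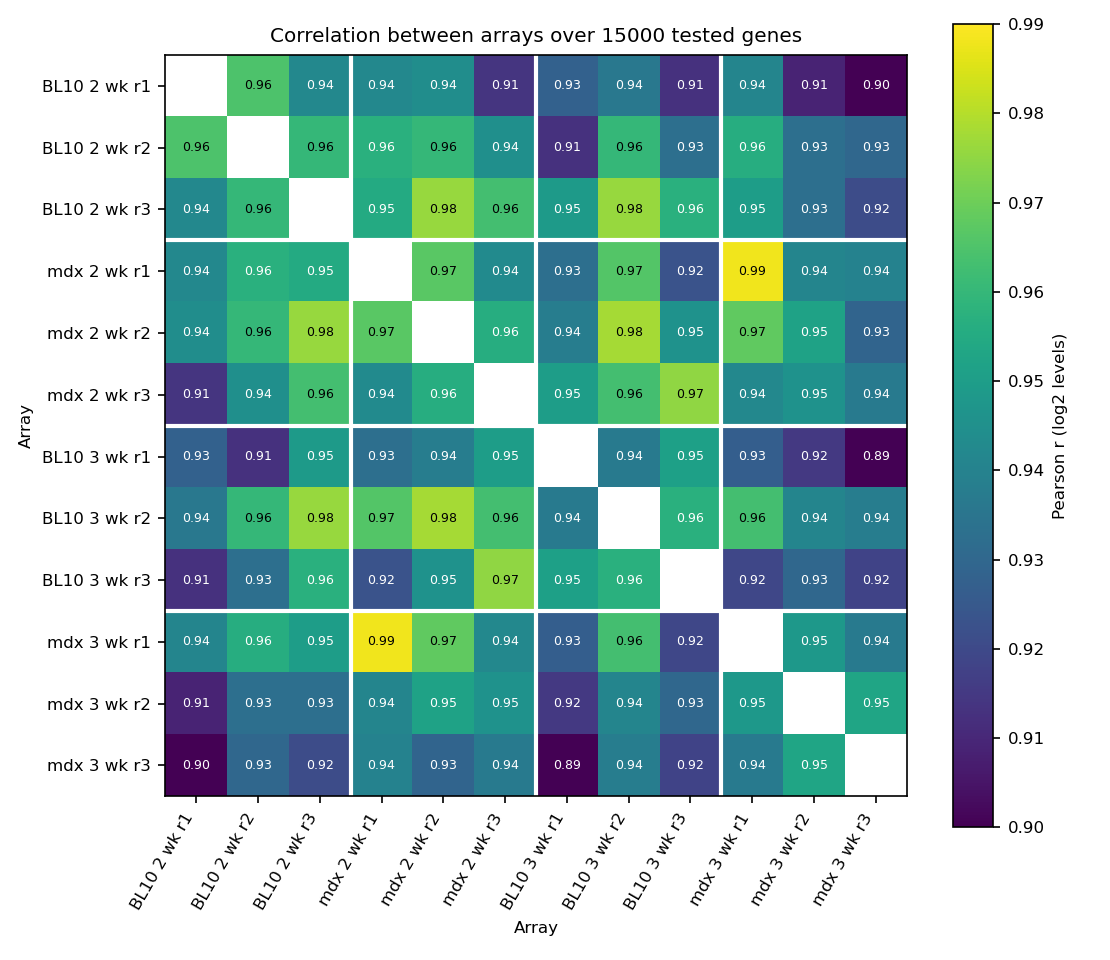
Pearson correlation of log2 levels over 15000 tested genes between the 12 arrays of mdx and BL10 at 2 and 3 weeks; both axes list the arrays by strain, age and replicate number, and white lines separate the groups. Replicate 1 of mdx at 2 weeks and replicate 1 of mdx at 3 weeks show the highest value of the matrix, 0.99.

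Brightness was alike across arrays, while 1 sign of RNA quality was not. Median deposited intensity ran from 48.4 to 53.2 over the 12 arrays, and between 3.29% and 4.35% of values lay below 0 in the 6 mdx arrays. The mean over 15 genes that define skeletal muscle, such as those for muscle actin and creatine kinase, was 13.17, 13.15 and 13.29 at 2 weeks and 13.17, 13.04 and 13.05 at 3 weeks, so all 6 arrays read as skeletal muscle. The difference between 3′ and 5′ Gapdh control probe sets, which grows as RNA degrades, was 0.75 and 0.37 in mdx 3 weeks replicates 1 and 2 and lay between -0.22 and 0.19 in the other 10 arrays. The same difference for actin lay between -0.35 and 0.10 in all 12. Xist, expressed from the inactive X chromosome of females, read 8.0 in mdx 2 weeks replicate 2 and 4.83 to 5.20 in the other 5, while the Y-linked Eif2s3y read 9.03 there and 9.10 to 9.66 in the others. The array titled mdx 2 weeks replicate 3 correlated best with BL10 3 weeks replicate 3, at r = 0.975, and mdx 2 weeks replicate 2 correlated best with BL10 3 weeks replicate 2, at r = 0.978.

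With all arrays in, no gene passed the threshold between 2 and 3 weeks: limma called 0 of 15000 genes (0%). The lowest adjusted p was 0.0574 and was shared by 34 genes, many of them leukocyte genes such as Cd84, Fcer1g, Irf8, Itgb2 and Ctss. At an unadjusted p under 0.05 there were 1248 genes (8.32%), 769 higher and 479 lower at 3 weeks. The higher share of those genes was 61.6%, and with the values as deposited or median centred instead of quantile normalized it was 71.2% or 73.0%. All 3 arrays at 3 weeks lay above all 3 at 2 weeks for 828 genes (5.52%) and below them for 731 (4.87%). The median difference over all genes was -0.01. For 1 gene, the smallest p that an exact permutation of 3 against 3 arrays allows is 0.1, and the calls therefore draw on variances pooled by limma.

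Which arrays were included decided the count. Without replicate 1 of both ages, 293 genes rose (1.95%) and 38 fell (0.253%). Without the 3 weeks replicate 1 array alone, 255 rose and 61 fell, and 263 genes were called under both settings, 79.5% of the first set and 83.2% of the second. Leaving out the 2 weeks replicate 1 array alone gave 115 calls. Without the array titled mdx 2 weeks replicate 3, 0 genes were called (0%). With that array and both replicate 1 arrays left out, 150 rose and 23 fell, which leaves 1 array at 2 weeks that is assumed to vary like the other groups. With the replicate number as a block, 1 gene was called in the fit to all arrays, Gpihbp1, which encodes the capillary anchor of lipoprotein lipase and fell by 1.13 (adjusted p 0.049); it was chosen after its values were seen.

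The 10 largest differences upward among genes whose groups did not overlap were, in order, Mpeg1, Ifi209, Ctss, Ms4a6d, Ccl12, Plek, Mt1, Ccl9, Zbp1 and Cd53, and none was called with all arrays. Mpeg1, the gene of perforin-2, a pore-forming protein of macrophages, read 7.03, 6.39 and 5.25 at 2 weeks and 7.22, 10.01 and 10.09 at 3 weeks, a difference of 2.89 ± 0.59 (adjusted p 0.0574). Ifi209, an interferon-inducible gene of the PYHIN family, read 6.58, 5.48 and 5.43 and then 6.76, 9.74 and 8.61 (2.54 ± 0.49). Ms4a6d, a membrane protein gene of monocytes and macrophages, read 6.30, 5.95 and 6.41 and then 6.65, 9.58 and 9.85 (2.47). In each of these genes, the 3 weeks replicate 1 array stood just above the 2 weeks arrays and the other 2 arrays at 3 weeks stood far above. Plek, which encodes the leukocyte and platelet protein pleckstrin, was higher by 2.31, Zbp1, a sensor of nucleic acids in the Z form, by 2.16, and Cd53, a leukocyte tetraspanin, by 2.08. Slfn4, a gene of the Schlafen family in myeloid cells, was higher by 3.27 but overlapped between ages and was chosen after its values were seen. It read 5.65, 6.16 and 5.83 at 2 weeks and 6.07, 11.34 and 10.05 at 3 weeks.

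**Figure D2:**
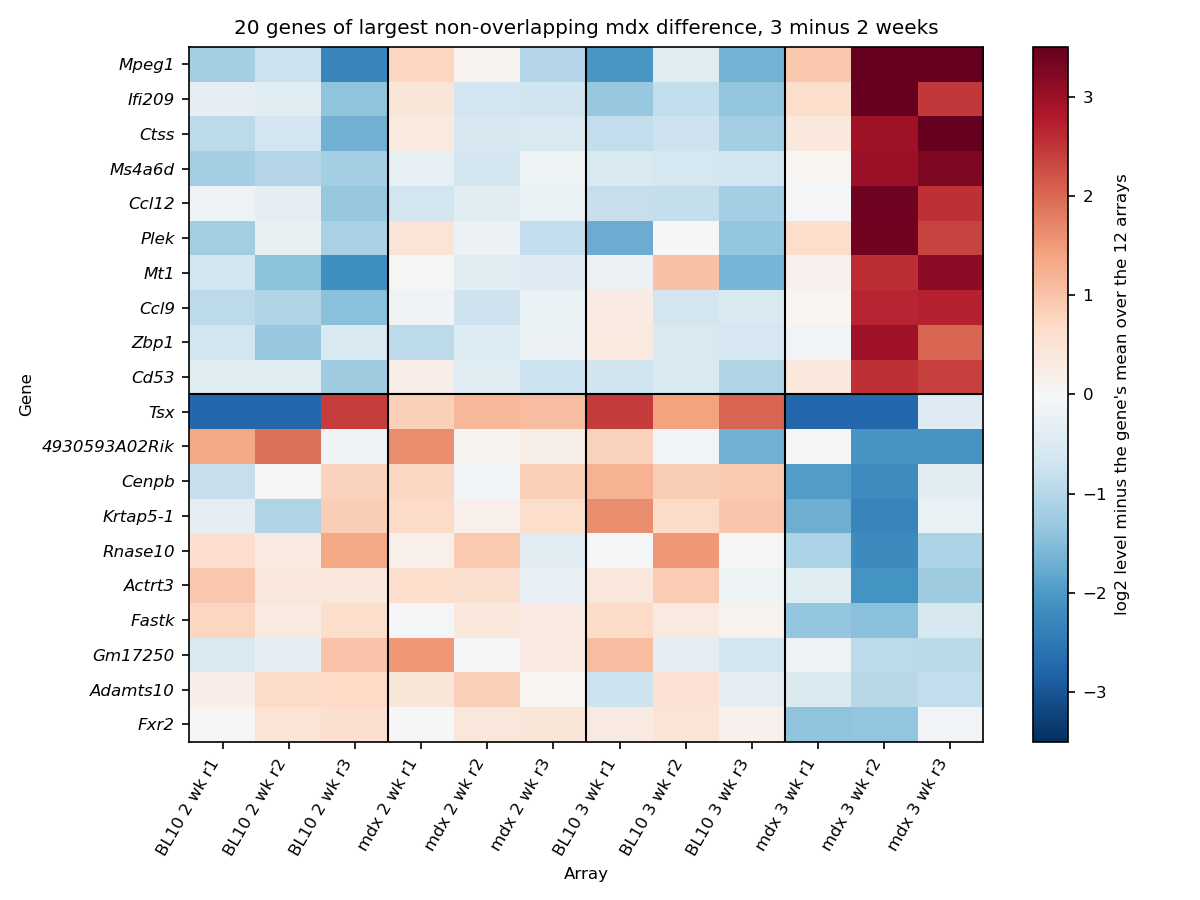
Log2 level minus the gene's mean over 12 arrays, shown by colour, for the 10 genes of largest upward and the 10 of largest downward difference between mdx at 3 and 2 weeks among genes whose groups do not overlap (rows), in each array (columns). In the upper block, mdx 3 weeks replicates 2 and 3 stand out from the other 10 arrays, and mdx 3 weeks replicate 1 lies near the 2 weeks arrays.

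Macrophage genes were higher at 3 weeks in nearly every member, though none was called with all arrays in. All 32 listed markers passed the filter on dim genes, and 30 of 32 were higher at 3 weeks, with a median difference of 1.35 against -0.01 over all genes. Of the 32, 0 were called with all arrays. At an unadjusted p under 0.05, 28 were higher, against 769 of all 15000 genes. In 15 (46.9%) all arrays at 3 weeks lay above those at 2 weeks, against 5.52% of all genes. The list mean per array was 7.56, 7.06 and 6.73 at 2 weeks and 7.57, 8.79 and 9.04 at 3 weeks, so replicate 1 read the same at both ages and replicates 2 and 3 carried the difference. BL10 arrays averaged 7.01, 7.09 and 6.54 at the younger age and 6.89, 6.98 and 6.55 a week later, with a median difference of -0.02. Without both replicate 1 arrays, 26 of the 32 rose and the median was 1.98. Without the array titled mdx 2 weeks replicate 3, the median was 1.19 and 0 were called.

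Ctss, the lysosomal protease cathepsin S, read 9.32, 8.43 and 8.47 at 2 weeks and 9.35, 11.96 and 12.48 at 3 weeks, a difference of 2.52 ± 0.50 (adjusted p 0.0574). Lyz2, lysozyme of myeloid cells, read 10.38, 9.46 and 9.21 and then 10.46, 11.40 and 11.56 (1.46 ± 0.28). In both genes the ages did not overlap, but 3 weeks replicate 1 lay only just above 2 weeks replicate 1. Csf1r, the receptor that keeps macrophages alive, read 10.26, 9.48 and 8.98 and then 10.31, 10.14 and 10.38, a difference of 0.70 ± 0.26 (adjusted p 0.349) in which the groups overlapped. Cd68, a lysosomal macrophage glycoprotein, read 7.61, 6.64 and 5.75 and then 7.62, 9.05 and 8.30 (1.66 ± 0.36). Ptprc, the pan-leukocyte phosphatase CD45, read 8.25, 7.43 and 6.60 and then 8.64, 9.81 and 9.84 (2.00 ± 0.41). These last genes ranked the 2 weeks arrays alike, with replicate 1 highest and replicate 3 lowest.

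Lgals3, which encodes the lectin galectin-3, read 8.89, 7.42 and 6.66 at 2 weeks and 8.70, 11.67 and 10.83 at 3 weeks (2.74 ± 0.77, adjusted p 0.151). Gpnmb, a transmembrane glycoprotein of phagocytes, read 6.64, 5.67 and 6.12 and then 6.43, 10.74 and 9.43 (2.72). In both genes the 3 weeks replicate 1 array lay inside the range at 2 weeks. Ccr2, the receptor that brings monocytes out of the blood, read 7.85, 6.39 and 6.28 and then 7.77, 8.46 and 10.27 (1.99), highest in replicate 3. A second Ccr2 probe set of nearly equal brightness gave -0.08, and a second one for Csf1r gave 0.02. Mrc1, the mannose receptor of resident and repair macrophages, read 8.80, 8.75 and 8.81 and then 8.92, 10.01 and 10.41 (0.99). The 4 markers that did not reach an unadjusted p under 0.05 were Cd163 (0.34), Spi1 (0.31), C1qa (-0.10) and Trem2 (-0.11). Cd163 is a haemoglobin scavenger receptor, Spi1 encodes the myeloid transcription factor PU.1, and Trem2 is a lipid receptor. C1qa read 8.15, 7.43 and 7.41 and then 6.24, 7.29 and 9.17, whereas its partner subunits C1qb and C1qc were higher by 1.16 and 0.80.

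**Figure D3:**
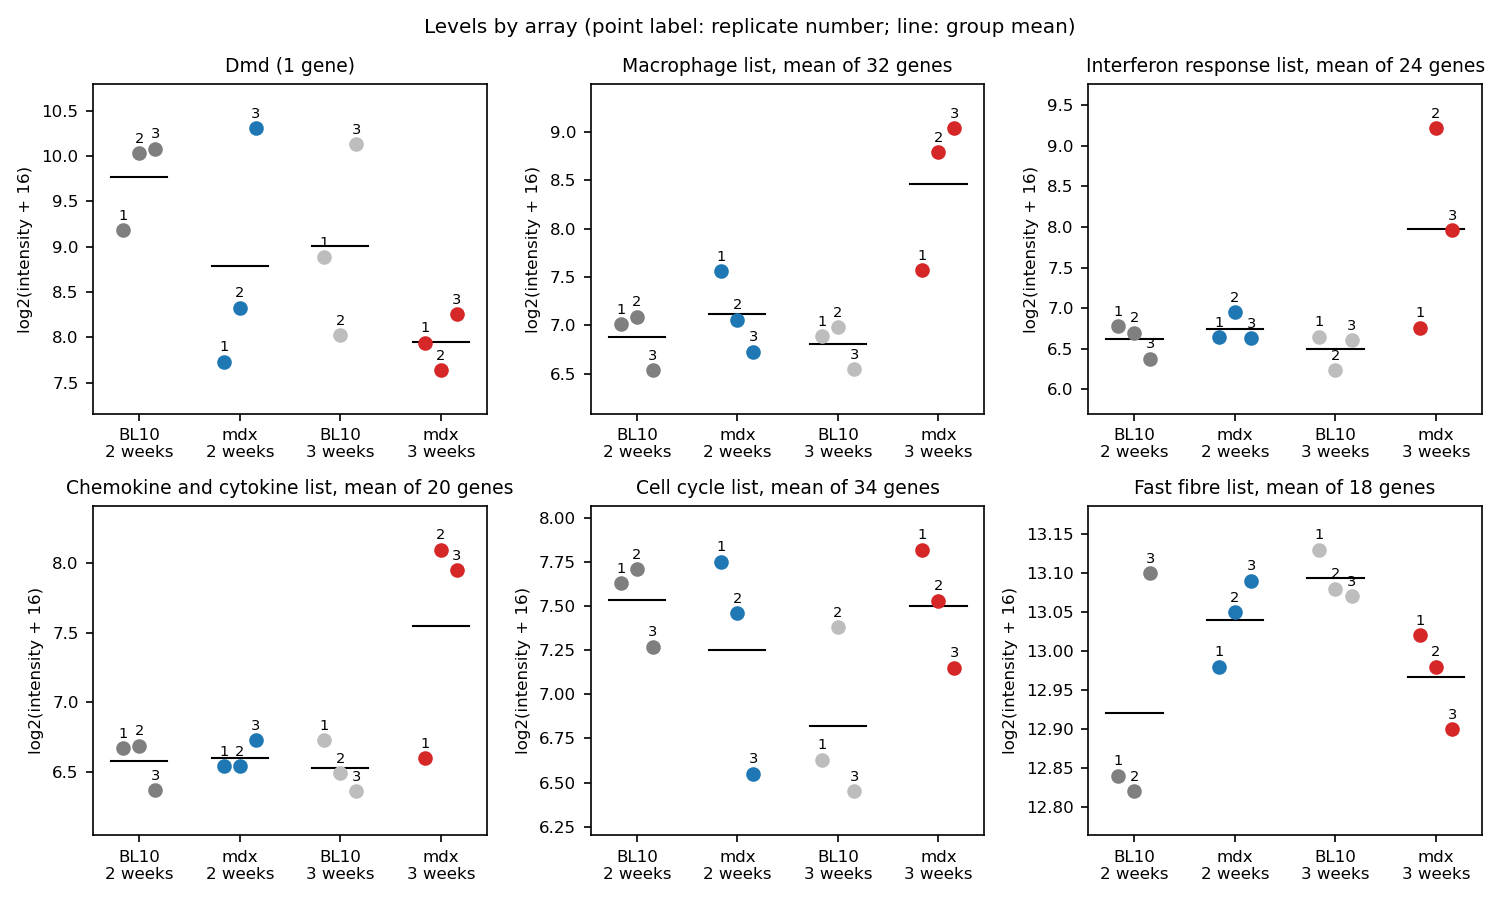
Log2 level of Dmd and mean log2 level of 5 gene lists (y axes) in each array of BL10 and mdx at 2 and 3 weeks (x axes); points carry the replicate number and horizontal lines are group means. The macrophage, interferon and chemokine means of mdx 3 weeks replicates 2 and 3 lie above all other arrays, while mdx 3 weeks replicate 1 lies with the arrays at 2 weeks.

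Chemokines and cytokines were read for 20 of 27 listed genes, since 6 were below the filter and Spp1 was not analysed here. The median difference was 0.72, 12 of 20 were higher at an unadjusted p under 0.05, and 0 were called with all arrays. In 4 (20%) all arrays at 3 weeks lay above those at 2 weeks, against 5.52% of all genes. Ccl2, the main attractant of monocytes, read 4.86, 5.32 and 5.12 at 2 weeks and 5.06, 9.31 and 8.98 at 3 weeks (2.68 ± 0.68, adjusted p 0.0949). Ccl12, a mouse relative that acts on the same receptor, read 5.10, 5.34 and 5.51 and then 5.67, 9.13 and 8.31 (2.39 ± 0.61, adjusted p 0.0999). The macrophage chemokines Ccl6 and Ccl9 were higher by 2.28 and 2.17, and Ccl8 by 1.88. Ccl6 read 7.80, 7.81 and 8.30 and then 8.06, 11.24 and 11.45. For all 5 chemokines, the 3 weeks replicate 1 array lay near the arrays at 2 weeks and the other 2 lay well above them. Without both replicate 1 arrays, 9 of the 20 rose and the median was 1.10, and without the array titled mdx 2 weeks replicate 3 it was 0.75. In BL10 the median was -0.12.

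Other members of the list divided. Il33, an alarm cytokine of stromal cells, read 6.73, 6.53 and 6.76 and then 6.90, 7.53 and 9.02 (1.14 ± 0.32). Csf1, the growth factor of macrophages, was higher by 0.74, and Il1b and Tnf, both inflammatory cytokines of macrophages, by 0.70 and 0.63, all with an unadjusted p under 0.05. A second Csf1 probe set of like brightness gave -0.24. Cxcl12, which retains leukocytes and stem cells in tissue and is the member of highest level, read 10.75, 10.10 and 9.64 and then 10.83, 9.81 and 10.03 (0.06 ± 0.35, or -0.35 with a second probe set). Ccl11, an attractant of eosinophils, differed by 0.19, Ccl5 by -0.19 and Ccl3 by -0.32. Of the 6 members below the filter, 4 stood clear of the floor in the same 2 arrays only. Ccl7 read 4.81 to 5.05 in 4 mdx arrays and 8.15 and 8.64 in 3 weeks replicates 2 and 3. Cxcl5, a neutrophil attractant, read 6.53 and 8.51 there against 4 to 4.82, Cxcl2 read 7.06 and 6.60 against 4 to 4.72, and Il6 read 5.33 and 6.74 against 4 to 4.58. These genes exceeded the filter in fewer than 3 arrays and were not tested.

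Interferon-stimulated genes were higher in all 24 tested members of 28 listed, with a median difference of 1.31. Of the 24, 21 were higher at an unadjusted p under 0.05 and 0 were called with all arrays. Only Ifit2 did not overlap (4.17%), near the 5.52% of all genes that lay above without overlap. The list mean per array was 6.64, 6.95 and 6.63 at 2 weeks and 6.76, 9.22 and 7.96 at 3 weeks, with replicate 2 highest, whereas the macrophage mean was highest in replicate 3. In BL10 the median was -0.18. Ifit1, an RNA-binding antiviral protein gene, read 5.59, 5.74 and 5.83 and then 5.63, 9.92 and 7.96 (2.12 ± 0.63, adjusted p 0.177). Irf7, the transcription factor that amplifies type I interferon, read 6.26, 6.47 and 6.2 and then 6.37, 9.54 and 7.95 (1.64 ± 0.48, adjusted p 0.165). Both genes thus repeated the order of the list, with replicate 2 above replicate 3 and replicate 1 at the level of 2 weeks.

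The 3 members of highest level showed the same order. Ifi27l2a, a small mitochondrial protein gene, read 7.58, 7.84 and 7.47 and then 7.72, 11.55 and 10.03 (2.13). Rsad2, which encodes the antiviral enzyme viperin, read 9.45, 8.49 and 7.79 and then 9.23, 11.49 and 9.25 (1.42). Ifi35 read 8.72, 8.94 and 9.11 and then 8.74, 10.39 and 10.23 (0.86). Cxcl10, an interferon-induced attractant of T cells counted in the chemokine list, read 5.65, 5.17 and 5.79 and then 5.48, 9.65 and 7.10 (1.87 ± 0.58, adjusted p 0.214). Stat2 and Mx2 had the smallest differences of the list, 0.26 and 0.46. Mx1, below the filter, read 4.82 to 4.99 in 4 mdx arrays and 8.33 and 6.57 in 3 weeks replicates 2 and 3. Without both replicate 1 arrays, 15 of the 24 rose and the median was 1.83, and without the array titled mdx 2 weeks replicate 3 it was 1.10.

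The promoters of the interferon list were searched for the core of the interferon-stimulated response element, GAAANNGAA, on both strands. The window ran from 250 bases before to 50 bases after each gene's start in RefSeq (assembly GRCm38.p6). It held the core in 9 of the 19 list members with a promoter entry (47.4%), in 1002 of 12005 tested genes (8.3%) and in 2812 of all 32851 promoters (8.6%). Among macrophage markers it was in 7 of 25 (28%). The PU.1 sequence GAGGAAGT was in 2 of those 25 (8.0%), Ctss and C1qc, in 0 of the 19 interferon genes (0.0%), in 3.5% of tested genes and in 3.2% of all promoters. A match describes letters only. The 160 bases before the start are printed 5′ to 3′ on the gene's strand, with matches in capitals. They are given for 4 interferon genes with at least 2 matches there and for 2 macrophage genes with the same core. Gbp3, an interferon gene with 2 matches, is not printed. On the opposite strand the core reads TTCNNTTTC, and overlapping matches appear as 1 longer run.
Ifit1, chr19:34640729-34640888, plus strand: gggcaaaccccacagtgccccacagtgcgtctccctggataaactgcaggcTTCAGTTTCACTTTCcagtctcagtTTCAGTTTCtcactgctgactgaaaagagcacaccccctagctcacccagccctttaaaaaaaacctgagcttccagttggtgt
Ifit3, chr19:34583369-34583528, plus strand: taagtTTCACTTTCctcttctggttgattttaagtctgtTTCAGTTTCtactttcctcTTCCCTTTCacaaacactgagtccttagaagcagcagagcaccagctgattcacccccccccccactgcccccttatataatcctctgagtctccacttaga
Oas1a, chr5:120907526-120907685, minus strand: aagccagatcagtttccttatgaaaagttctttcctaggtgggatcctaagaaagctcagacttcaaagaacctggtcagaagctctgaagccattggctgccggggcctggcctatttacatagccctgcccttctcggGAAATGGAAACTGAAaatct
Bst2, chr8:71537473-71537632, minus strand: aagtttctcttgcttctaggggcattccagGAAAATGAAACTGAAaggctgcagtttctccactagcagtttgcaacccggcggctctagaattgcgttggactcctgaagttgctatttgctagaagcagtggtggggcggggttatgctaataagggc
Ctss, chr3:95526626-95526785, plus strand: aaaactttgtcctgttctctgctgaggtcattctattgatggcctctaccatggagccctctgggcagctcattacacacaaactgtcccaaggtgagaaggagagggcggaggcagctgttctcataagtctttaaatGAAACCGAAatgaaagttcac
Ccr2, chr9:124102023-124102182, plus strand: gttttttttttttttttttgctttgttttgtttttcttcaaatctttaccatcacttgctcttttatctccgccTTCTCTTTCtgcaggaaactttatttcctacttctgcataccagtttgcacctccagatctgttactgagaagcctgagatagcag

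The windows of Ifit1 and Ifit3 each held 3 matches, those of Oas1a and Bst2 held 2, and those of Ctss and Ccr2 held 1. Ifit3 read 6.65, 6.96 and 6.98 at 2 weeks and 6.70, 10.59 and 8.55 at 3 weeks (1.75). Oas1a, an RNA-sensing synthetase gene, read 5.96, 6.15 and 6.00 and then 6.08, 9.07 and 8.0 (1.68). Bst2, which encodes the virus-retaining protein tetherin, read 7.11, 7.52 and 6.92 and then 7.08, 9.37 and 8.39 (1.10). These 3 genes were highest in replicate 2 at 3 weeks, whereas Ctss and Ccr2, given above, were highest in replicate 3.

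Complement and antigen-presentation genes were higher in part. Of 13 complement genes tested, 0 were called with all arrays, 5 were higher at an unadjusted p under 0.05, and the median was 0.26. C3ar1, a receptor for a complement fragment on myeloid cells, read 6.23, 5.68 and 5.47 at 2 weeks and 6.09, 8.45 and 8.67 at 3 weeks (1.94 ± 0.41, adjusted p 0.0574). Cfb, a protease of the alternative pathway, read 5.55, 4.54 and 5.61 and then 5.78, 7.32 and 7.11 (1.5). The bright plasma-type components Serping1 and C1s1, an inhibitor and a protease of the classical pathway, differed by 0.18 ± 0.21 and 0.07 ± 0.19. Of 10 genes of MHC class II presentation, 0 were called and 7 were higher at an unadjusted p under 0.05. In 4 (40%) the 3 weeks arrays lay above without overlap, against 5.52% of all genes. The median was 0.56 against 0.28 in BL10. H2-Aa, a class II chain, was higher by 1.01 in mdx and 0.77 in BL10. Cd74, the class II chaperone, read 9.13, 8.25 and 8.57 and then 9.29, 9.09 and 9.59 (0.68 ± 0.31). Ifi30, a thiol reductase of antigen processing, read 8.93, 8.37 and 8.23 and then 8.97, 9.59 and 9.49 (0.84), and Ctsh, a cathepsin, was higher by 0.53.

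Tested markers of other leukocytes showed few differences. Of 12 neutrophil genes tested, 1 was higher at an unadjusted p under 0.05, the decoy receptor Il1r2 (1.12), and the median was 0.29 with all arrays and -0.20 without the array titled mdx 2 weeks replicate 3. The neutrophil mean was 8.04, 6.89 and 5.70 at 2 weeks and 8.13, 6.39 and 6.42 at 3 weeks, so the replicate 1 arrays were highest at both ages. S100a8, a calcium-binding protein of neutrophils and monocytes, read 10.94, 9.22 and 6.74 and then 11.18, 8.95 and 9.56 (0.93 ± 1.21). Ngp, a granule protein of immature neutrophils, read 10.33, 8.61 and 6.39 and then 10.45, 5.90 and 4.94 (-1.35). Cxcr2, below the filter and not tested, read 4.62, 4 and 4.49 and then 5.04, 5.15 and 6.28. Of 12 genes of T, NK and B cells, 0 reached an unadjusted p under 0.05 (median -0.17, and -0.33 without that array). Cd3e, a T cell receptor subunit, read 9.04, 9.31 and 10.90 and then 8.96, 8.82 and 8.15, while Cd3g, Il7r, Klrd1 and Foxp3 were below the filter. Of these untested genes, Il7r read 5.32, 4.69 and 4.58 and then 5.62, 7.83 and 6.03. Foxp3 read 4.83, 5.12 and 4.88 and then 4.59, 4.57 and 4.52, while Cd3g and Klrd1 overlapped between ages. Of 9 tested genes of mast cells and eosinophils, 0 reached an unadjusted p under 0.05 (median -0.35). Their median was -0.57 without the array titled mdx 2 weeks replicate 3.

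Several proteases, protease inhibitors and receptors that remodel the matrix read higher at 3 weeks. The matrix remodelling list had a median of 0.31 over 19 tested genes, with 0 called, 8 higher at an unadjusted p under 0.05, and 8 that rose without both replicate 1 arrays. Timp1, an inhibitor of metalloproteases, read 8.67, 6.21 and 7.05 at 2 weeks and 8.65, 9.23 and 11.31 at 3 weeks (2.43 ± 0.54, adjusted p 0.0667). Serpina3n, a secreted protease inhibitor, read 4.12, 5.01 and 4.68 and then 4.42, 8.30 and 8.17 (2.36 ± 0.81). Adam8, a membrane protease of leukocytes, read 4.80, 4.79 and 5.11 and then 4.75, 8.16 and 8.06 (2.09). In these genes the 3 weeks replicate 1 array lay inside the range at 2 weeks or just below it. Plau and Plaur, the urokinase protease and its receptor, were higher by 1.44 and 1.10, and Mmp3, stromelysin, by 1.30. The brightest members were the cathepsin genes Ctsb and Ctsl and the collagen chaperone gene Serpinh1, with 0.45, 0.44 and -0.15. In BL10 the list's median was 0.05.

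Collagens and other matrix proteins showed no common direction. The median over 31 genes was 0.00 with all arrays, and -0.01 without both replicate 1 arrays, and its sign turned with the scaling, since it was 0.02 with values as deposited. Without the array titled mdx 2 weeks replicate 3 it was -0.23, and in BL10 it was -0.23. Col1a1 and Col1a2, the chains of type I collagen, differed by -0.37 ± 0.35 and -0.22 ± 0.27, and Col3a1, type III collagen, by 0.05 ± 0.09, all near the top of the scale. A dimmer Col1a1 probe set gave 0.73, the opposite direction. With the brighter one, Col1a1 read 13.67, 12.64 and 13.12 and then 13.77, 12.88 and 11.67. Thbs1, thrombospondin-1, was the 1 member without overlap (3.23%, against 5.52% of all genes that lay above). It read 8.18, 7.19 and 7.61 and then 8.4, 9.56 and 9.52 (1.5 ± 0.37, adjusted p 0.088). Tnc, the injury-associated glycoprotein tenascin-C, read 10.20, 6.94 and 8.60 and then 10.20, 9.04 and 10.14 (1.21 ± 0.58, adjusted p 0.600). Its 2 highest values were those of the replicate 1 arrays, 1 at each age. The growth factor list, which holds the TGF-beta family, had a median of 0.01 over 21 genes, and -0.01 without the array titled mdx 2 weeks replicate 3, with 1 higher at an unadjusted p under 0.05, the receptor Tgfbr1 (0.40). Markers of fibro-adipogenic progenitors, the fibroblast-like cells of muscle, had a median of -0.24 over 17 genes, and -0.37 without that array. Of these, 0 were higher and 2 lower at an unadjusted p under 0.05, Cd34 (-0.69) and Clec3b (-0.61).

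Genes of newly formed fibres were mixed at the level of the list and widest in 1 array. Of 15 developmental muscle genes tested, 0 were called with all arrays, 6 were higher at an unadjusted p under 0.05 and 0 lower, and the median was 0.38 against -0.43 in BL10. That median was 0.13 without the array titled mdx 2 weeks replicate 3 and 0.18 without both replicate 1 arrays. Myh3, embryonic myosin, read 10.49, 9.32 and 7.31 at 2 weeks and 10.5, 9.92 and 11.82 at 3 weeks (1.70 ± 0.66, adjusted p 0.398), and its difference was 0.84 without the array titled mdx 2 weeks replicate 3. Tnnt2, the embryonic and cardiac troponin T, read 8.5, 8.46 and 7.25 and then 8.63, 9.42 and 11.24 (1.69 ± 0.53, adjusted p 0.216). Ankrd1, a stretch-responsive titin-binding protein, read 7.56, 6.36 and 7.6 and then 7.70, 8.26 and 11.03 (1.82 ± 0.55). In all of these, replicate 3 at 3 weeks was highest. Chrng, the fetal subunit of the acetylcholine receptor, read 5.22, 5.34 and 4.78 and then 4.93, 6.51 and 7.99 (1.36). As a description, the differences of Ankrd1, Tnnt2 and Chrng without both replicate 1 arrays were 2.67, 2.47 and 2.19. None of them was called with all arrays.

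Other developmental genes did not join them. Myh8, perinatal myosin, read 11.43, 11.96 and 9.31 at 2 weeks and 11.65, 10.04 and 10.55 at 3 weeks (-0.15 ± 0.59). Igf2, the fetal growth factor, read 13.18, 13.23 and 11.70 and then 12.99, 11.87 and 12.06 (-0.40), and Dlk1, an imprinted gene that falls after birth, read 9.86, 10.81 and 7.73 and then 10.09, 8.4 and 7.83 (-0.69). In all 3 genes the array titled mdx 2 weeks replicate 3 read lower than the other 2 arrays at 2 weeks, and in Dlk1 it stood at the level of BL10 3 weeks replicates 1 and 3, 7.70 and 7.08. Without it the differences of Myh8, Igf2 and Dlk1 were -0.95, -0.90 and -1.56, and 0 of them were called. Actc1, cardiac actin, read 13.55 to 13.72 over the 6 arrays.

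Regulators of muscle formation had a median of 0.08 over 17 genes, with 0 called, 2 higher and 1 lower at an unadjusted p under 0.05. Without the array titled mdx 2 weeks replicate 3 the median was -0.04. Myog, the factor that commits myoblasts to fusion, read 9.94, 9.13 and 8.51 at 2 weeks and 9.54, 8.86 and 10.10 at 3 weeks (0.30 ± 0.38, and -0.04 without that array). Myod1, which marks activated satellite cells, differed by -0.22 and Pax7, which marks all satellite cells, by 0.11. The 2 fusion proteins, Mymk and Mymx, were higher by 0.66 and 1.22 in mdx, and lower by 2.14 and 1.79 in BL10. Mymx read 6.95, 6.69 and 5.04 and then 6.92, 6.81 and 8.62, so that replicate 3 was lowest at 2 weeks and highest at 3 weeks. Without the array titled mdx 2 weeks replicate 3, Mymk and Mymx differed by 0.12 and 0.63. Among the brighter members, Myf6 differed by 0.44 ± 0.27 and Mef2c by 0.08 ± 0.27, or by -0.40 with another Mef2c probe set.

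Cell division genes were close to level in mdx while they were lower at 3 weeks in BL10. Of 34 genes, 30 had a positive difference in mdx (median 0.29), 0 were called, 0 were higher and 1 was lower at an unadjusted p under 0.05, Cdc45 (-0.88). The BL10 median was -0.68. The list mean was 7.75, 7.46 and 6.55 in mdx at 2 weeks and 7.82, 7.53 and 7.15 at 3 weeks, against 7.63, 7.71 and 7.27 and then 6.63, 7.38 and 6.45 in BL10. Mki67, the proliferation marker Ki-67, read 8.92, 8.85 and 6.80 and then 9.48, 8.51 and 7.80 (0.41 ± 0.67), and in BL10 it differed by -1.72. Top2a, topoisomerase of dividing cells, differed by 0.60 in mdx and -1.82 in BL10. The sign in mdx rested on 1 array: without the array titled mdx 2 weeks replicate 3, the median was -0.15. The lowest mean of mdx at 2 weeks was that array's, and the highest mean of BL10 at 3 weeks was that of replicate 2, the 2 arrays whose Dmd levels go against their titles. Their part in the difference between strains was not tested beyond leaving them out.

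**Figure D4:**
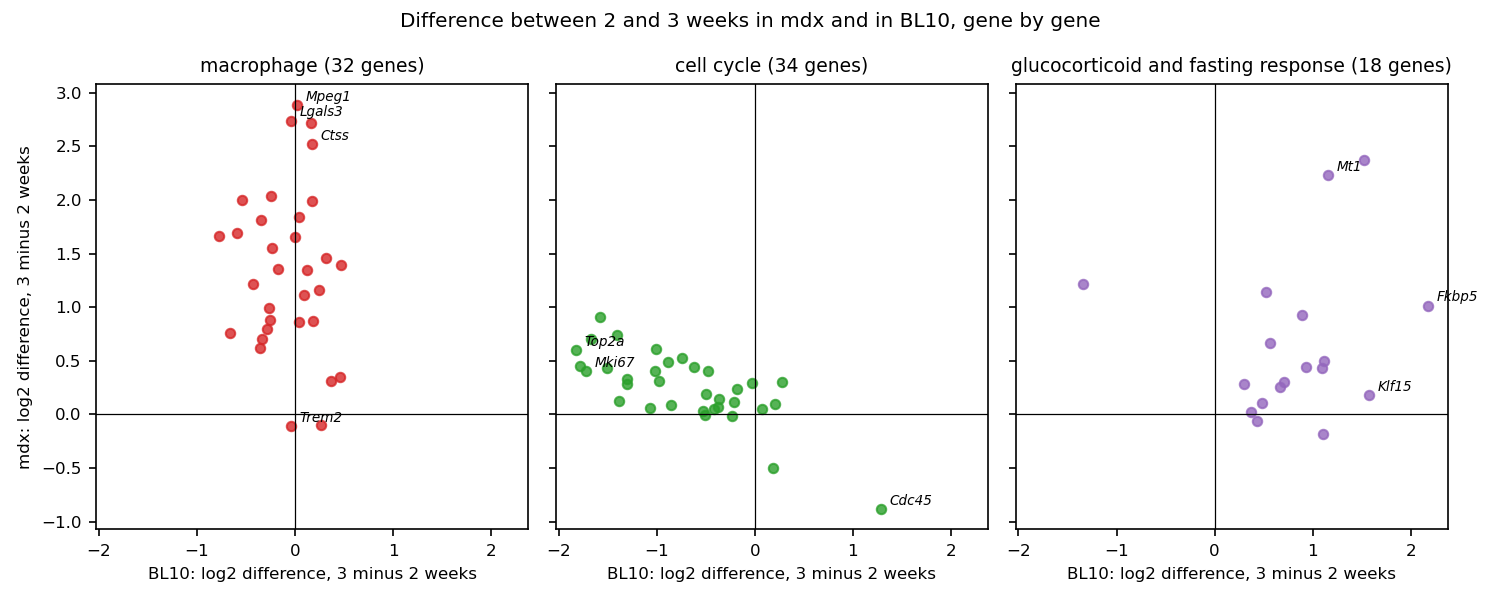
Log2 difference, 3 weeks minus 2 weeks, in mdx (y axis) against BL10 (x axis) for each tested gene of 3 lists; each point is 1 gene and black lines mark 0. Macrophage genes spread upward near 0 in BL10, most cell cycle genes lie left of 0 in BL10 and just above 0 in mdx, and most glucocorticoid and fasting genes lie right of 0 in BL10.

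Genes of the mature contractile apparatus showed little difference, but many lay near the top of the scale. The highest level of any gene on any array was 14.11. The fast fibre list had a median of -0.02 over 18 genes, and 0 reached an unadjusted p under 0.05. That median turned to 0.00 with values as deposited, and also without the array titled mdx 2 weeks replicate 3. Myh4, the myosin of the fastest fibres, differed by 0.02 ± 0.26 and Pvalb, the calcium buffer of those fibres, by -0.04 ± 0.25. All fast genes of highest level, Tnni2, Tnnt3 and Mylpf, differed by at most 0.04. A dimmer Myh4 probe set gave -0.96. Slow fibre genes had a median of 0.06 over 13 genes but varied widely between arrays of 1 age. Myh7, slow myosin, read 12.46, 11.34 and 8.09 at 2 weeks and 12.42, 7.47 and 10.58 at 3 weeks (-0.47 ± 1.20), and Myl2, its light chain, read 12.86, 12.02 and 9.42 and then 12.90, 8.39 and 10.98. The replicate 1 arrays were highest at both ages, and the list's median was -0.54 without the array titled mdx 2 weeks replicate 3.

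The dystrophin-associated complex had a median of -0.13 over 18 genes, and -0.03 without the array titled mdx 2 weeks replicate 3, with 0 past an unadjusted p of 0.05. Dag1, dystroglycan, differed by -0.03 ± 0.10, Sspn, sarcospan, by -0.13 ± 0.22 and Cav3, caveolin-3, by 0.39 ± 0.23. Calcium handling had a median of -0.20 over 18 genes, with 2 lower at an unadjusted p under 0.05 and 4 below without overlap, against 4.87% of all genes. Its median was -0.07 without the array titled mdx 2 weeks replicate 3. Stim1, the calcium sensor of the sarcoplasmic reticulum, read 10.32, 9.91 and 9.78 at 2 weeks and 9.57, 9.12 and 9.45 at 3 weeks (-0.63 ± 0.18, adjusted p 0.154). Cacnb1, a subunit of the voltage sensor, read 9.86, 10.21 and 10.32 and then 9.53, 9.62 and 9.75 (-0.50 ± 0.21). All 3 arrays at 3 weeks, replicate 1 included, were lower in both genes. Ryr1, the calcium release channel, differed by 0.06 ± 0.21, and by -0.62 with a dimmer probe set. In BL10 the list's median was 0.16.

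Membrane repair genes were higher in 13 of 14 tested members, with a median of 0.43, or 0.26 without the array titled mdx 2 weeks replicate 3, against -0.16 in BL10. Of the 14, 0 were called with all arrays, and 8 were higher and 1 lower at an unadjusted p under 0.05. Of the list, 5 (35.7%) lay above without overlap, against 5.52% of all genes. Myof, the dysferlin relative myoferlin, read 6.80, 5.97 and 6.14 at 2 weeks and 7.02, 7.57 and 7.19 at 3 weeks (0.96 ± 0.22, adjusted p 0.069). Anxa1, a calcium-dependent membrane-binding annexin, read 10.63, 9.61 and 9.53 and then 10.78, 11.24 and 10.47 (0.91 ± 0.28), and Anxa4 was higher by 0.81. Capn2, a calcium-activated protease, read 10.30, 10.25 and 10.07 and then 10.52, 10.74 and 10.63 (0.42 ± 0.14). Myof and Capn2 separated the ages in all 6 arrays. Anxa2, Vim and Ahnak, the brightest members, were higher by 0.62, 0.54 and 0.43. Dysf, dysferlin itself, differed by 0.13 and Capn1 by -0.59. Macrophages and fibroblasts also express Vim and the annexins, and the part of the macrophage difference in this list was not tested.

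Respiratory chain genes read slightly lower at 3 weeks. Of 32 respiratory chain genes, 31 had a negative difference, with a median of -0.17 against 0.11 in BL10. Of these, 0 were called with all arrays and 5 were lower at an unadjusted p under 0.05. Of the list, 5 (15.6%) lay below without overlap, against 4.87% of all genes. Sdhc, a membrane subunit of succinate dehydrogenase, read 11.48, 11.57 and 11.67 at 2 weeks and 10.93, 10.82 and 10.36 at 3 weeks (-0.87 ± 0.22, adjusted p 0.1). The other members lay between -0.35 and 0.03, such as Atp5b (-0.22 ± 0.14) and Cox4i1 (-0.10 ± 0.07). Fatty acid oxidation had a median of -0.28 over 21 genes, with 1 lower at an unadjusted p under 0.05. That gene was Fabp3, the muscle fatty acid carrier, at 13.24, 13.31 and 12.52 and then 13.20, 11.87 and 11.57 (-0.81 ± 0.39). The list's median was -0.59 without the array titled mdx 2 weeks replicate 3. Glycolysis had a median of -0.02 over 19 genes in mdx, 0.01 without that array, and 0.46 in BL10, and Pfkm, its rate-setting enzyme, differed by -0.18 in mdx and 0.67 in BL10.

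Stress-response lists were led by the metallothioneins, small proteins that bind zinc and copper. Mt1 read 10.29, 9.89 and 9.80 at 2 weeks and 10.41, 12.85 and 13.40 at 3 weeks (2.23 ± 0.65, adjusted p 0.171). Mt2 read 9.35, 9.13 and 9.83 and then 9.41, 12.65 and 13.35 (2.37 ± 0.75, adjusted p 0.226). In BL10 they were higher at 3 weeks by 1.16 and 1.52. The list of glucocorticoid and fasting genes that holds them had a median of 0.44 in mdx, 0.74 without the array titled mdx 2 weeks replicate 3, and 0.80 in BL10, with 3 of 18 higher at an unadjusted p under 0.05. Fkbp5, a glucocorticoid-induced chaperone, read 7.13, 6.77 and 9.07 and then 7.34, 9.92 and 8.76 (1.01 ± 0.72), with the array titled mdx 2 weeks replicate 3 already high, and differed by 2.17 in BL10. Klf9, Sgk1 and Glul, the brightest members, differed by -0.06, 0.10 and 0.25, and a second, much dimmer Klf9 probe set gave -1.47. The atrophy and autophagy list had a median of 0.06 over 20 genes, and 0.02 without that array.

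Oxidative stress genes had a median of 0.33 over 18 genes, with 7 higher at an unadjusted p under 0.05, of which Cybb, Cyba, Ncf1 and Ncf4 encode the phagocyte oxidase. Ncf4 read 6.80, 6.34 and 5.57 at 2 weeks and 7.12, 7.50 and 7.72 at 3 weeks (1.21 ± 0.26, adjusted p 0.061). A second Ncf1 probe set gave -0.17 in place of 0.86. Hmox1, which breaks down haem, read 7.26, 6.61 and 6.78 and then 7.35, 7.92 and 7.75 (0.80 ± 0.29). The brightest members, Gpx1, Gpx4 and Sod2, differed by 0.29, -0.03 and -0.15. Lysosomal genes had a median of 0.31 over 19 genes, and 0.20 without the array titled mdx 2 weeks replicate 3, with 8 higher at an unadjusted p under 0.05. Grn, progranulin, read 11, 10.24 and 9.62 and then 10.98, 11.50 and 11.09 (0.90 ± 0.26), and Psap, the sphingolipid activator precursor, was higher by 0.37, though a second probe set gave -0.19. Heat shock and unfolded protein genes had a median of 0.26 over 22 genes, with 3 higher: Sdf2l1 (0.76), Hspa5 (0.67) and Manf (0.54), all chaperones or stress factors of the endoplasmic reticulum. Hspa5 read 10.99, 10.80 and 10.76 and then 10.94, 11.52 and 12.08. Of these 3 lists, 0 genes were called with all arrays, and 3, 3 and 2 rose without both replicate 1 arrays.

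Markers of other tissue cells varied between arrays. Endothelial genes had a median of -0.36 over 16 genes, with 15 negative, and -0.74 without the array titled mdx 2 weeks replicate 3. Kdr, a receptor for vascular growth factor, read 10.86, 10.72 and 9.31 at 2 weeks and 10.73, 9.68 and 9.74 at 3 weeks (-0.25 ± 0.33). Adipocyte genes ran from a mean of 7.12 to 9.55 at 2 weeks and from 7.07 to 10.28 at 3 weeks, with a median difference of 0.01, and -0.74 without the array titled mdx 2 weeks replicate 3. Tendon genes ran from 6.92 to 9.14 and from 7.26 to 8.98 (median -0.42, and 0.06 without the array titled mdx 2 weeks replicate 3). Schwann cell genes had a median of 0.48 over 11 genes, 0.31 without that array, and were highest in 3 weeks replicate 3, whose mean of 8.70 compared with 7.29 to 8.07 in the other 5. Mbp, myelin basic protein, read 11.14, 9.98 and 9.59 and then 11.37, 9.78 and 12.50. Medians were -0.15 for smooth muscle and pericytes, -0.24 for erythroid genes, -0.05 for the neuromuscular junction and -0.14 for the circadian clock, and without that array -0.27, -0.19, -0.13 and -0.03. A second Mbp probe set differed by -0.79. How far the content of fat, tendon, nerve or vessels in a sample adds to the other differences was not tested.

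**Figure D5:**
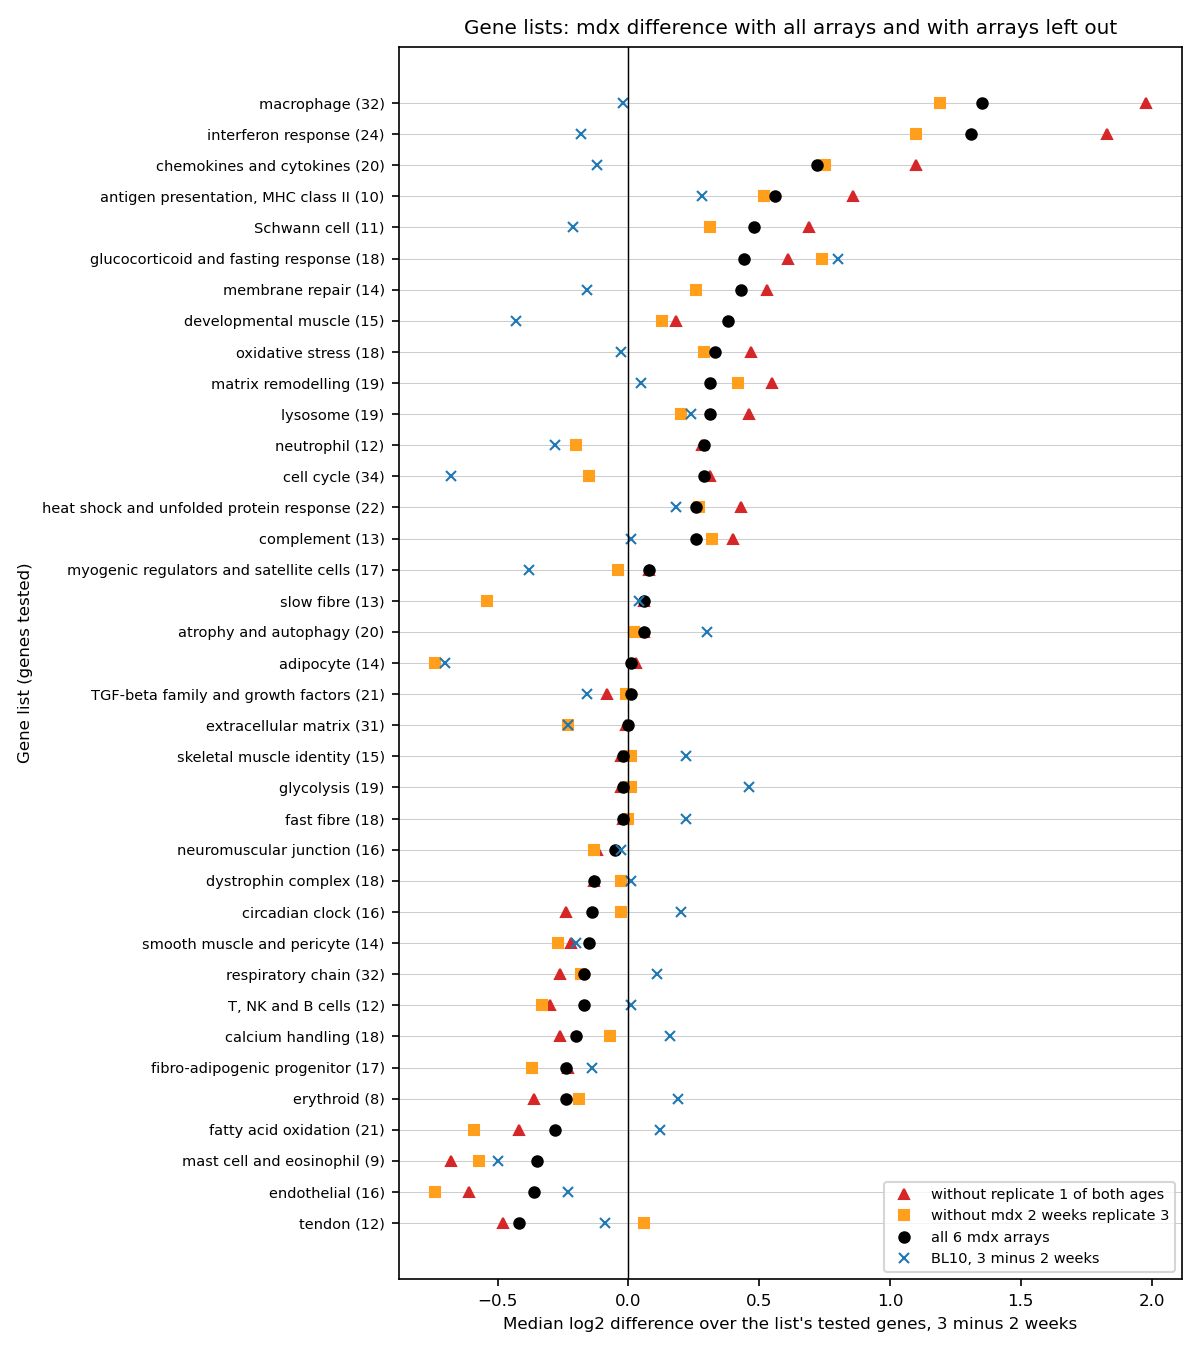
Median log2 difference, 3 weeks minus 2 weeks, over the tested genes of each list (x axis; lists on the y axis with the number tested) in mdx with all 6 arrays, without replicate 1 of both ages, without the array titled mdx 2 weeks replicate 3, and in BL10. The macrophage and interferon lists lie furthest to the right in mdx, at 1.35 and 1.31 with all arrays, and near 0 in BL10.

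The largest differences downward among genes whose groups did not overlap were those of Tsx, 4930593A02Rik, Cenpb, Krtap5-1, Rnase10, Actrt3, Fastk, Gm17250, Adamts10 and Fxr2, and none was called with all arrays. Tsx, a gene of the X-inactivation region, read 7.58, 7.91 and 7.82 at 2 weeks and 4, 4 and 6.29 at 3 weeks, where 4 is the floor. It also read at the floor in 2 of 3 BL10 arrays at 2 weeks, with 9.15 in the other. Cenpb, a centromere-binding protein, read 8.59, 7.78 and 8.72 and then 5.93, 5.68 and 7.52 (-1.99 ± 0.41, adjusted p 0.0574). Fastk, a mitochondrial RNA-binding kinase relative, read 8.87, 9.30 and 9.22 and then 7.57, 7.49 and 8.39 (-1.32), and Fxr2, a relative of the fragile X protein, was lower by 1.22. In these genes the 3 weeks replicate 1 array was low together with replicate 2, and replicate 3 lay nearest to the arrays at 2 weeks. Replicates 1 and 2 are also those with the raised Gapdh difference between 3′ and 5′ ends (0.75 and 0.37, against -0.16 in replicate 3), and its part in these genes was not tested. Without mdx 3 weeks replicate 3, 7 genes were called and all were lower: Cenpb, Fastk, Fxr2, Gm11190, Krtap5-1, Mapkapk2 and Mepce. As a description, the differences of Actrt3 and Fastk without both replicate 1 arrays were -1.80 and -1.33. The differences of Krtap5-1 and Rnase10 were -1.91 and -1.71, and 4930593A02Rik was at the floor in 3 weeks replicates 2 and 3.

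Whether the mdx difference exceeded the growth seen in BL10 over the same week was tested as the difference between both changes, which use separate arrays. With all arrays, 4 genes were called with a more positive change in mdx (0.0267%) and 16 with a more negative one (0.107%), all at an adjusted p of 0.0498. In BL10 itself, 114 of 15000 genes were called (0.760%), 59 higher and 55 lower at 3 weeks. With the replicate number as a block, 59 genes were called in the difference between strains in place of 20. Prg3, an eosinophil granule protein relative, differed by 0.48 in mdx and -1.71 in BL10, a difference of 2.19. Lst1, a leukocyte adaptor, differed by 1.03 in mdx and -1.10 in BL10. It read 6.07, 5.99 and 5.54 and then 6.31, 6.99 and 7.38 in mdx. Among those more negative, Cx3cl1, a membrane-bound chemokine, differed by -0.76 in mdx and 1.10 in BL10, and Slc38a3, a glutamine transporter, by -1.20 and 0.72. Slc38a3 read 8.31, 8.82 and 9.13 and then 7.76, 7.79 and 7.12 in mdx, so all arrays at 3 weeks lay below those at 2 weeks. Macrophage and interferon list members were 0 of 32 and 0 of 24 among the 20 called genes, and 25 and 13 were called more positive without both replicate 1 arrays. Over all genes that setting called 306 more positive (2.04%) and 89 more negative (0.593%). Without the array titled mdx 2 weeks replicate 3, 0 genes were called in the difference, and also 0 without it and BL10 3 weeks replicate 2.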

How the data were processed

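Quadriceps RNA was hybridised to Affymetrix Mouse 430 2.0 arrays, per the labels' protocols. The deposited intensities are linear, 1 value per probe set, and were computed by the authors with PLIER, per the submitters' processing notes; its version and settings are not given in the sources used here. Values below 0 show that a background was subtracted. Quantile normalization, a floor at 0, addition of 16 and log2 followed. Of 45101 probe sets, 64 controls were left out, and of the 45037 analysed, 34945 had 1 gene symbol in the platform annotation, 932 several and 9160 none. The brightest probe set stood for each of 18193 symbols, and genes above the 40th percentile on at least 3 arrays were kept (15000). The precision is limited by 3 arrays per group; the median standard error was 0.225.

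limma 3.58.1 in R 4.3.3 was fitted to the 8 group means of all 24 arrays with an intensity trend and Benjamini-Hochberg adjustment over all genes tested, and was tested on simulated data. Same-numbered mdx arrays of 2 and 3 weeks deviated from their group means together (r = 0.43, 0.21 and 0.25), though the pair of 2 weeks replicate 3 and 3 weeks replicate 2 also reached 0.21, so a fit with the replicate number as a block was added; the titles state no shared litter or day. The main fit has no block. Other scalings, constants, filters, probe set rules, array weights, subsets of arrays and leaving out arrays were tried. Members and gene lists were chosen with earlier results of these data known. Named genes were, per direction, the 10 largest differences without overlap and, per list, the 3 members of highest level; other genes were named after their values were seen. Probe set symbols were updated from RefSeq by gene ID, and promoters were then matched by symbol.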

Additional observations from a re-analysis of the deposited data

Results flagged for a closer look

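All 20 genes called in the difference between strains had a limma adjusted p of 0.0498 in a test of the difference itself. The 14 named here were all those more positive in mdx and those of largest size among the more negative. The change in mdx minus that in BL10 was 2.19 for Prg3, 2.13 for the leukocyte adaptor gene Lst1, 1.31 for the spliceosome gene Eftud2 and 1.09 for thioredoxin, Txn1. It was -3.17 for Krtap5-1, -2.97 for Cenpb, -2.71 for Nutm1 and also -2.71 for Zdhhc14, a palmitoyltransferase gene. It was -2.21 for Mob2, -2.12 for the mucosal chemokine gene Ccl28, -1.92 for Slc38a3, -1.86 for Cx3cl1, -1.79 for the mitochondrial translation factor gene Gfm2 and -1.70 for Lrriq4. The larger change was that in BL10 for Nutm1 (1.73, against -0.98 in mdx) and Ccl28 (1.31 against -0.81). The same held for Gfm2 (1.22 against -0.57), Lrriq4 (1.30 against -0.39), Zdhhc14 (1.90 against -0.81), Prg3 (-1.71 against 0.48) and Cx3cl1 (1.10 against -0.76). It held by a small margin for Lst1 (-1.10 against 1.03), Mob2 (1.12 against -1.09), Eftud2 (-0.66 against 0.65) and Txn1 (-0.60 against 0.49). Of the 14, only Krtap5-1, Cenpb and Slc38a3 had the larger change in mdx. Nutm1 lay at the floor of 4 in BL10 2 weeks replicate 1 and mdx 3 weeks replicate 2. The Zdhhc14 value rests on 1 of 6 probe sets, whose change in mdx was -0.81, while the other 5 gave -0.17, 0.03, 0.47, 0.48 and 0.55. None of these genes was called without the array titled mdx 2 weeks replicate 3. Groups of 3 arrays were not searched for single outlying values.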

How the results depend on the processing

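With all 24 arrays 0 genes were called between 2 and 3 weeks in mdx, and 0 also with values as deposited, a constant of 1, no filter, the 60th percentile filter, averaged probe sets, every probe set, no trend, and the 12 or 6 arrays alone. There were 48 calls (46 higher, 2 lower) with median centring, 67 (61 and 6) with a constant of 64, 171 (130 and 41) with array weights and 1 (lower) with the replicate block. Leaving out single arrays gave 0 to 316 calls, 0 to 255 higher and 0 to 61 lower. Leaving out both arrays numbered 1 gave 331 (293 and 38), and also mdx 2 weeks replicate 3, 173 (150 and 23). For the difference from BL10, 20 calls became 0 with values as deposited, median centring, a constant of 1, no filter, no trend, the 12 arrays, and without the 2 arrays whose Dmd goes against the title. They became 51 with a constant of 64, 45 with the 60th percentile filter, 7 with averaged probe sets, 237 with every probe set, 379 with array weights and 59 with the replicate block. Leaving out single arrays gave 0 to 1051: 1051 without BL10 2 weeks replicate 3, 278 without BL10 3 weeks replicate 2, 229 and 327 without replicate 1 of mdx at 2 and 3 weeks, 10 without mdx 3 weeks replicate 3 and 0 without any other. Without both arrays numbered 1 it was 395, and also without mdx 2 weeks replicate 3, 91. The cause was not tested. Over 47 single-gene values and all settings, 774 of 1132 kept direction and side of the threshold, 132 passed it, 226 lost it and 0 reversed. Under the replicate block all 47 values kept direction and side of the threshold. The number of arrays limits the precision.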
